A study of Homo sapiens with 6 samples.

Results

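The 32 genes described here encode the machinery that brings proteins into the endoplasmic reticulum (ER), removes their signal peptides and attaches N-linked glycans. They were chosen by gene symbol, complex by complex, and all 32 were found among the 26255 symbols listed for each sample. Expression was given as FPKM, a read level scaled for transcript length and for the mapped reads of the library, so levels can be compared between genes of a sample, while comparisons between samples also depend on the scaling described below. RNA was sequenced from 22RV1, a single human castration-resistant prostate cancer (CRPC) cell line, grown in medium with serum that had not been depleted of androgen. The 3 DMSO samples received vehicle and the 3 BCT samples received 10 nM bruceantin (BCT), a plant-derived quassinoid, each for 24 h. Nothing in the labels says that samples of a group came from separate cultures, so p-values measure only the spread between these samples, which may be technical.

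Secretory and membrane proteins start with a signal sequence that the signal recognition particle (SRP) binds as it leaves the ribosome. The particle docks on its receptor at the ER membrane, and the growing chain passes through the SEC61 channel, helped by the TRAP complex, TRAM1 and, for some clients, SEC62 and SEC63. Signal peptidase then cuts off the signal sequence, and oligosaccharyltransferase (OST) moves a preassembled glycan from a lipid carrier onto asparagine residues of the chain. Many of these genes are known as targets of the transcription factor XBP1 in cells with a high secretory load.

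Because XBP1 and related factors act on short promoter elements, RefSeq promoters (build GRCh38.p14, 250 bases before to 50 after each start) were searched for 4 motifs on both strands. Of the 32 genes, 27 matched a promoter entry, and RPN1, TUSC3, STT3B, SPCS1 and TRAM1 did not. The XBP1 motif TGACGTGG, which shares its first letters with the cyclic AMP response element, occurred in 4 of the 27 genes (14.8%), beside 253 of 27305 genes in the whole promoter table (0.927%) and 119 of the 9455 tested genes with an entry (1.26%). The 4 sites are shown so that their flanks can be compared. Each is 30 bases, 5′ to 3′ on the strand of the gene, with the motif (read here as its reverse complement CCACGTCA) in capitals. The stretches lie at chr3:169966779-169966808 (plus strand) for SEC62, chr5:112861164-112861193 (plus strand) for SRP19, chr3:156554148-156554177 (minus strand) for SSR3 and chrX:153794528-153794557 (plus strand) for SSR4.
SEC62: ccctcctcgctCCACGTCAgagggaaccgg
SRP19: aagtcttcatgCCACGTCAgagactagaga
SSR3: tctgataacagCCACGTCAgcaaggaaact
SSR4: tcagggaggggCCACGTCAgtgctgccaga
The sites spanned bases -17 to -10 from the start of SEC62, -112 to -105 of SRP19, -41 to -34 of 1 of the 3 starts listed for SSR3, and -129 to -122 of 1 of the 2 starts listed for SSR4. With the FPKM as deposited, the log2 fold changes of SEC62 and SRP19 were positive and those of SSR3 and SSR4 were negative. These signs depend on scaling. With samples rescaled to equal FPKM sums (described below), SSR3 turned positive (0.50) and SSR4 was -0.077, beside 1.69 for SEC62 and 1.40 for SRP19. A link between the motif and these changes was not tested.

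The ER stress response element (CCAAT, any 9 bases, CCACG) and the ER stress response element II (ATTGG, any base, CCACG) were in no window of the 27 genes. They were in 25 and 19 of the 27305 genes (0.0916% and 0.0696%), and in 15 and 13 of the 9455 tested genes with an entry (0.1586% and 0.1375%). The amino acid response motif TGATGNAA was in 1 of 27 (3.70%, in SRPRB), in 1217 of the 27305 (4.46%) and in 235 of the 9455 tested genes (2.49%). Motif matches are descriptions of letters, and absence from these windows says nothing about a factor. The 250 bases before the start are shown for SEC62 (chr3:169966557-169966806, plus strand) and SRP19 (chr5:112861037-112861286, plus strand), the 2 holders of the XBP1 motif with a single listed start, again with the motif in capitals.
SEC62: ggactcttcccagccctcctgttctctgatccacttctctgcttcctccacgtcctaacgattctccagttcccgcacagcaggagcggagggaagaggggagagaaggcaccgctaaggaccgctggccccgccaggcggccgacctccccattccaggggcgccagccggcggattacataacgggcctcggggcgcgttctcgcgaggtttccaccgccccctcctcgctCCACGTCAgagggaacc
SRP19: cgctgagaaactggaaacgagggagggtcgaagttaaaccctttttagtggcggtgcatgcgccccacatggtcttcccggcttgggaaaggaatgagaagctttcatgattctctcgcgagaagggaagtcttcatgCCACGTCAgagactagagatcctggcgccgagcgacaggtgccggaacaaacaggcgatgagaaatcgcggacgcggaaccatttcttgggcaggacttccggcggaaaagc

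With BCT, genes of this machinery were called in both directions. All 32 passed the filter of a mean of at least 1 FPKM, as did 12729 genes in all, and each was tested in limma on log2(FPKM + 0.1). A gene is called lower or higher here at an absolute log2 fold change above 0.85 with a Benjamini-Hochberg false discovery rate (FDR) below 0.05. SPCS3, RPN2, DDOST and OSTC were called lower (4 of 32, 12.5%, beside 17.8% of all tested genes). SRP68, SEC61A2 and SEC62 were called higher (3 of 32, 9.38%, beside 13.9%), and 25 were not called. Both shares were below those of all tested genes.

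Smaller differences were more common than calls. At the FDR alone, 21 of the 32 were lower (65.6%, beside 42.8% of all tested genes), 5 were higher (15.6%, beside 39.3%) and 6 passed in neither direction. All BCT samples lay below all DMSO samples for 22 genes (beside 44.3% of all tested genes) and above them for 7 (beside 41%), and SRP54, SRPRB and TRAM1 overlapped. The median log2 fold change was -0.35 (range -1.89 to 1.23) with the FPKM as deposited, against -0.04 over all tested genes, but it turned to 0.04 and 0.42 when samples were rescaled to equal FPKM sums without and with the small RNA gene MIR6087, where the median of all genes moved to 0.34 and 0.72. As deposited, 22 of the 32 genes were below the median of all tested genes. Equal FPKM sums and equal sample medians apply a constant factor per sample and move all genes nearly alike, so there the count stayed 22 by construction. Quantile normalization, which could change the count, gave 18.

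**Figure D1:**
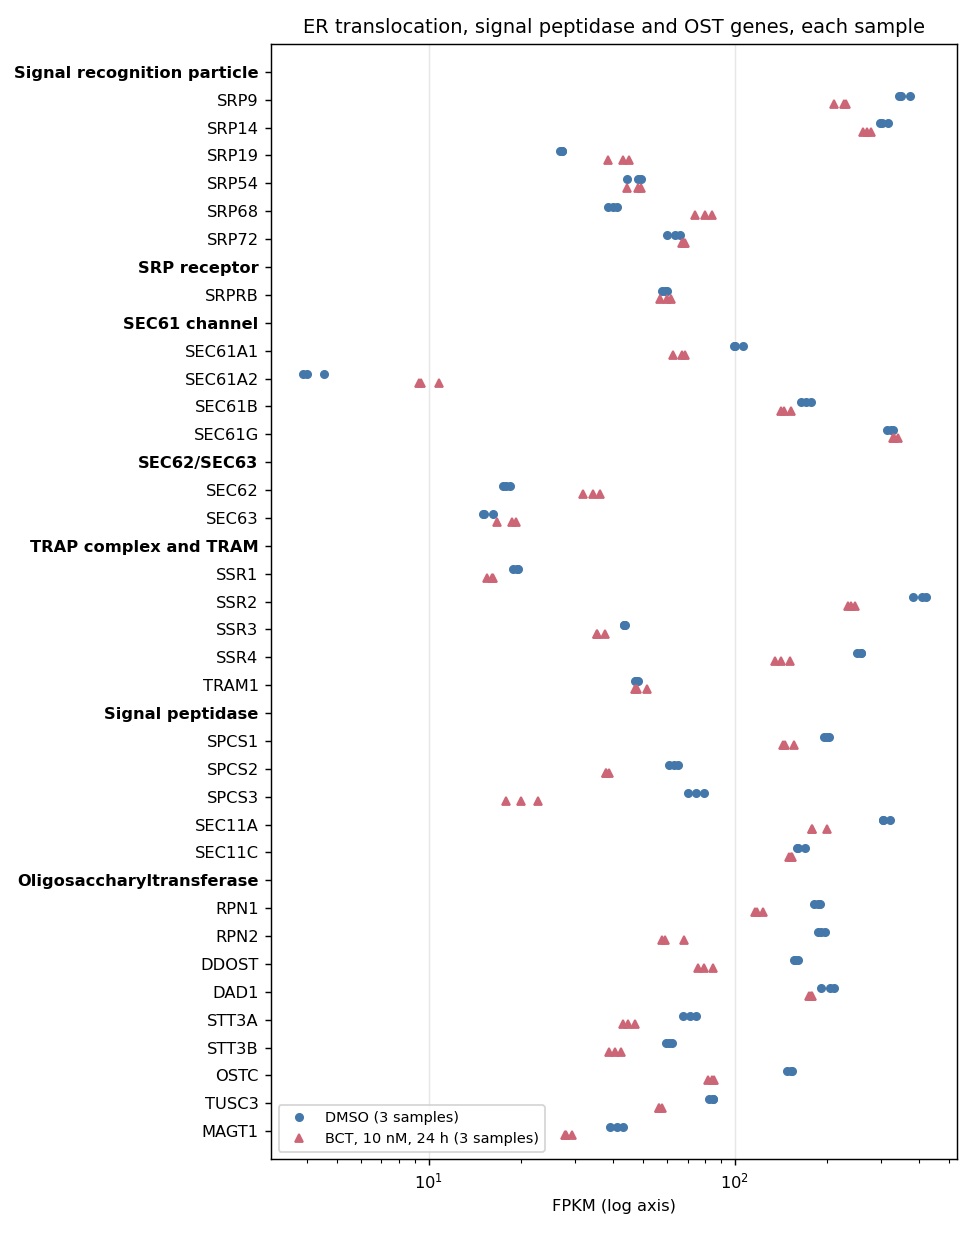
FPKM (log axis) of each of the 32 genes in the 3 DMSO samples (circles) and the 3 BCT samples (triangles), grouped by complex. For the OST genes all triangles lie left of all circles with the FPKM as deposited, as they do for 44.3% of all tested genes. SRP68, SEC61A2 and SEC62 show the triangles to the right.

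The libraries differed in ways that touch every value here. The FPKM of a sample summed to 1169649 to 1572321 in DMSO and to 757534 to 799838 in BCT, and MIR6087 alone took 43.5% to 55.3% of that sum in DMSO and 31.7% to 32.5% in BCT. Read counts are not in the FPKM files. Relative depth was estimated as the most common ratio of DMSO replicate 1 to a sample, over genes at 0.02 to 0.15 FPKM in both. It was 0.877 to 1 in DMSO, where replicate 1 is 1 by construction, and 1.06 to 1.13 in BCT. BCT replicate 1 was the BCT sample nearest to the DMSO mean for 19 of the 32 genes and for 6 of the 7 called genes. Over all tested genes, too, it correlated more closely with the DMSO samples (0.892 to 0.896) than BCT replicates 2 and 3 did (0.851 to 0.857). Without BCT replicate 1, 5 genes were called lower (SSR4 joined, at -0.89) and 3 higher. All 8 prostate luminal markers averaged at least 1 FPKM and summed to 798 to 803 FPKM in DMSO and 1777 to 1954 in BCT, with KRT8 and KRT18 higher and KLK2, KLK3 and TMPRSS2 lower. The 3 basal markers were under 1 FPKM in every sample (sums 0.032 to 0.081, and 0.219 to 0.44). Sums were 145 to 151 and 79.2 to 95.6 for 4 neuroendocrine, 2.57 to 2.73 and 5.83 to 7.03 for 5 fibroblast, and 2.41 to 3.45 and 5.12 to 8.39 for 4 leukocyte markers, of which SYP, ENO2, COL1A1 and CD68 averaged at least 1 FPKM and none was at 0 throughout. The part of these shifts in the results was not tested.

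SRP is an RNA with 6 protein subunits, and its subunits diverged. SRP68, which with SRP72 forms a heterodimer on the SRP RNA, lies at chr17:74034856-74068598 on the minus strand (GRCh37, the build of the files). It measured 38.4, 41.2 and 39.9 FPKM in DMSO and 74.1, 84.1 and 79.6 in BCT. The groups were far apart, and SRP68 rose by 0.99 (log2, SE 0.06, adjusted p = 1.84e-06, limma), a 1.98-fold change. Its partner SRP72 measured 65.9, 63.9 and 60.0 FPKM in DMSO and 68.7, 68.2 and 67.1 in BCT (0.11, adjusted p = 0.0864, limma), so that the groups lay side by side without passing the test. The SRP68 to SRP72 ratio within a sample went from 0.631 ± 0.0427 to 1.17 ± 0.0788 (SD, n = 3 per group). This ratio and the other partner ratios named as such below were picked after the values were seen and have no test.

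SRP9 and SRP14 form the Alu domain dimer that slows elongation, and they were the most abundant SRP genes. SRP9 measured 373, 344 and 349 FPKM in DMSO and 228, 211 and 231 in BCT, and its log2 fold change of -0.67 passed the FDR (adjusted p = 9.01e-06, limma) without reaching the fold limit. SRP14 measured 317, 302 and 299 FPKM in DMSO and 270.3, 279 and 262 in BCT, a smaller difference of -0.18 (adjusted p = 0.009, limma). The partner ratio of SRP9 to SRP14 went from 1.16 ± 0.0194 to 0.828 ± 0.0639 (SD, n = 3 per group).

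SRP19, which helps assemble the particle, had the lowest level of the SRP genes, with 26.8, 27.2 and 27.2 FPKM in DMSO and 38.4, 43.1 and 45.1 in BCT. Its log2 fold change was 0.64 (adjusted p = 2.69e-05, limma), below the fold limit, with all BCT samples above all DMSO samples. The listed interval of SRP19 is shared with REEP5, and 12.7% of its 100-base stretches occur in ENSG00000258864. SRP54, the GTPase that binds the signal sequence, had overlapping groups at 47.3 ± 2.61 FPKM in DMSO and 47.4 ± 2.63 in BCT (SD, n = 3 per group), with a log2 fold change of 0.0017 and a 95% interval of -0.14 to 0.15. SRPRB, the membrane-anchored subunit of the SRP receptor, also overlapped, at 59.0 ± 1.03 and 59.6 ± 2.43 FPKM (0.01, interval -0.10 to 0.13). The signs of SRP54 and SRPRB changed under equal sample medians.

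**Figure D2:**
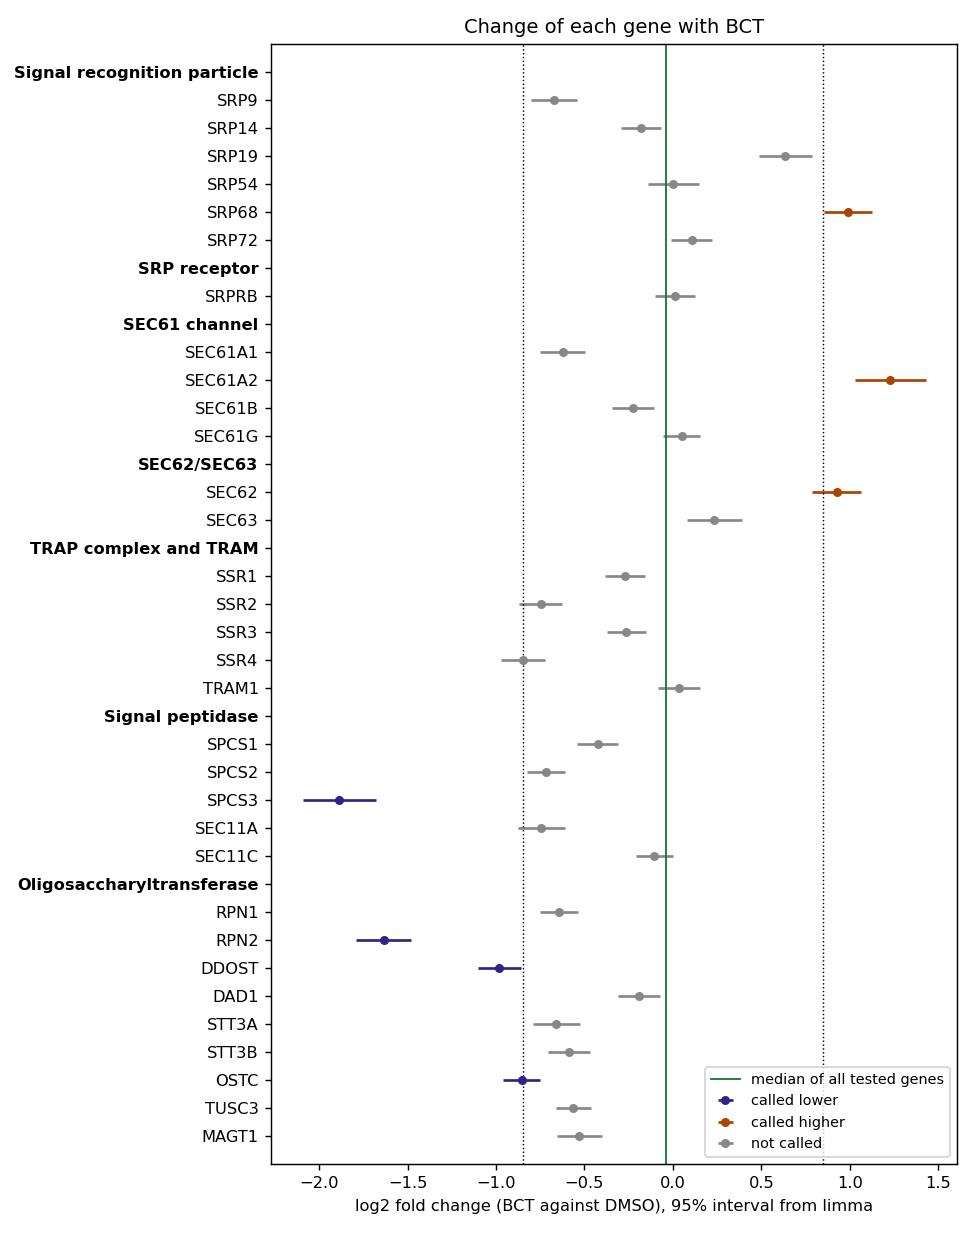
log2 fold change of each gene between BCT and DMSO on the log2(FPKM + 0.1) scale, with its 95% interval from limma. Dotted lines mark the fold limit of 0.85 and the green line the median of all tested genes (-0.04). The 4 genes called lower are in the signal peptidase and OST groups and the 3 called higher in the SRP, SEC61 and SEC62/SEC63 groups. Under equal FPKM sums 17 of the 22 negative values shown turned positive.

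The SEC61 channel holds 1 alpha, 1 beta and 1 gamma subunit, and the alpha subunit, which forms the pore, is encoded by either of 2 genes. SEC61A1, the major form, measured 99.1, 107 and 99.9 FPKM in DMSO and 68.8, 67.0 and 62.7 in BCT. Every BCT value was below every DMSO value, with a log2 fold change of -0.62 (adjusted p = 1.23e-05, limma), short of the fold limit. SEC61A2 (chr10:12171636-12211960, plus strand), the minor form, measured 3.995, 4.54 and 3.87 FPKM in DMSO and 9.41, 10.8 and 9.26 in BCT. It rose by 1.23 (log2, SE 0.088, adjusted p = 3.95e-06, limma), which was the highest value among the 32 genes, although it stayed the least abundant of them in both groups.

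The ratio of SEC61A1 to SEC61A2 within each sample is not altered by a constant scaling factor per sample, unlike the single levels. It was 24.8, 23.5 and 25.8 in DMSO and 7.31, 6.20 and 6.77 in BCT, a log2 difference of -1.87 (95% interval -2.09 to -1.65). For this pair an exact two-sided permutation test gave p = 0.1, the smallest that 3 against 3 samples allow, or 0.2 adjusted over the 4 pairs of alternative subunits. These 4 pairs were chosen with earlier results of these data known, so their p-values and intervals are descriptions and not independent tests. In the files, SEC61A2 shares its listed interval with CDC123, NUDT5 and MIR548AK, and 9.76% of its exonic bases lie under NUDT5 on the other strand. The library kit does not mark strand, so reads from such overlaps cannot be told apart. SEC61B and SEC61G, the small subunits, were among the abundant genes. SEC61B measured 171 ± 6.39 FPKM in DMSO and 146 ± 5.51 in BCT (SD, n = 3 per group), with -0.23 on the log2 scale. SEC61G measured 323 ± 7.40 and 334 ± 6.55 FPKM, with 0.05 (interval -0.05 to 0.15).

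SEC62 and SEC63 assist the channel with clients that engage it poorly, and SEC63 also recruits the luminal chaperone HSPA5. SEC62 (chr3:169684423-169716161, plus strand) measured 18.4, 17.9 and 17.5 FPKM in DMSO and 31.9, 34.4 and 36.3 in BCT. It rose by 0.93 (log2, SE 0.06, adjusted p = 2.49e-06, limma), and its lowest BCT sample was well above its highest DMSO sample. SEC63 measured 15.2, 16.2 and 15 FPKM in DMSO and 16.7, 19.2 and 18.7 in BCT, a log2 fold change of 0.23 (adjusted p = 0.0109, limma). The partner ratio of SEC62 to SEC63 went from 1.16 ± 0.053 to 1.88 ± 0.0795 (SD, n = 3 per group).

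The TRAP complex, with subunits SSR1 to SSR4, sits beside the channel and helps insertion of clients with weak signal sequences. All 4 of its genes were lower at the FDR alone (beside 42.8% of all tested genes) and none was called (beside 17.8% called lower). SSR2 measured 408, 383 and 422 FPKM in DMSO and 247, 239.9 and 234 in BCT (-0.75, adjusted p = 3.84e-06, limma). SSR4 measured 258, 251 and 259 FPKM in DMSO and 151, 141 and 135 in BCT (adjusted p = 2.29e-06, limma). With -0.846, SSR4 was the gene just inside the fold limit, while OSTC with -0.854 was just past it, so those neighbours do not differ beyond their errors. SSR1 and SSR3 were less abundant and differed less, at 19.2 ± 0.436 against 15.9 ± 0.408 FPKM for SSR1 (-0.27) and 43.5 ± 0.162 against 36.2 ± 1.26 FPKM for SSR3 (-0.26, SD, n = 3 per group). Thus within one complex the log2 differences ran from -0.846 to -0.26, while under equal FPKM sums SSR1, SSR2 and SSR3 turned positive. TRAM1, a membrane protein that contacts nascent chains at the channel, had overlapping groups of 48.2, 47.3 and 47.6 FPKM in DMSO and 47.7, 47.1 and 51.8 in BCT (0.03, interval -0.09 to 0.15).

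Signal peptidase is built of a catalytic subunit, SEC11A or SEC11C, and the accessory subunits SPCS1, SPCS2 and SPCS3. SPCS3 (chr4:177241117-177253396, plus strand), which is needed for activity of the enzyme, gave the most negative log2 fold change of the 32 genes. It measured 79.2, 70.4 and 74.3 FPKM in DMSO and 22.8, 17.8 and 19.97 in BCT. SPCS3 fell by 1.89 on the log2 scale (SE 0.09, adjusted p = 8.66e-07, limma), to 27.1% of the DMSO mean, and only 3.41% of all tested genes had a value as low or lower. The other accessory genes differed less. SPCS2 measured 64.9, 60.9 and 63.0 FPKM in DMSO and 37.8, 38.9 and 37.9 in BCT (-0.72, adjusted p = 2.62e-06, limma). SPCS1 measured 204, 199.6 and 195 FPKM in DMSO and 156, 143 and 146 in BCT (-0.42, adjusted p = 7.25e-05, limma). In SPCS1, 70.7% of the 100-base stretches of the main GENCODE transcript also occur in NEK4. That gene model ends at 52745164, past the end of the listed interval at 52742197, so how far these stretches touch its FPKM is uncertain. The listed interval of SPCS1 is shared with GLT8D1, GNL3, SNORD19, SNORD19B and SNORD69. The partner ratio of SPCS3 to SPCS1 was 0.374 ± 0.0192 in DMSO and 0.136 ± 0.0107 in BCT (SD, n = 3 per group).

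The alternative catalytic subunits differed in size of change. SEC11A measured 322, 305 and 306 FPKM in DMSO and 199.5, 179 and 179 in BCT (-0.74, adjusted p = 6.42e-06, limma). SEC11C measured 169.9, 160.1 and 161 FPKM in DMSO and 152, 150.4 and 153 in BCT, and its log2 fold change of -0.10 did not pass the FDR (adjusted p = 0.0626, limma). Their ratio was 1.89, 1.90 and 1.90 in DMSO and 1.31, 1.19 and 1.17 in BCT, a log2 difference of -0.64 (interval -0.78 to -0.50, exact permutation p = 0.1, adjusted 0.2). SEC11A was the more abundant form in every sample of both groups. All 5 signal peptidase genes were lower in every BCT sample with the FPKM as deposited (beside 44.3% of all tested genes). Under equal FPKM sums only SPCS3 was still negative (-1.12).

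**Figure D3:**
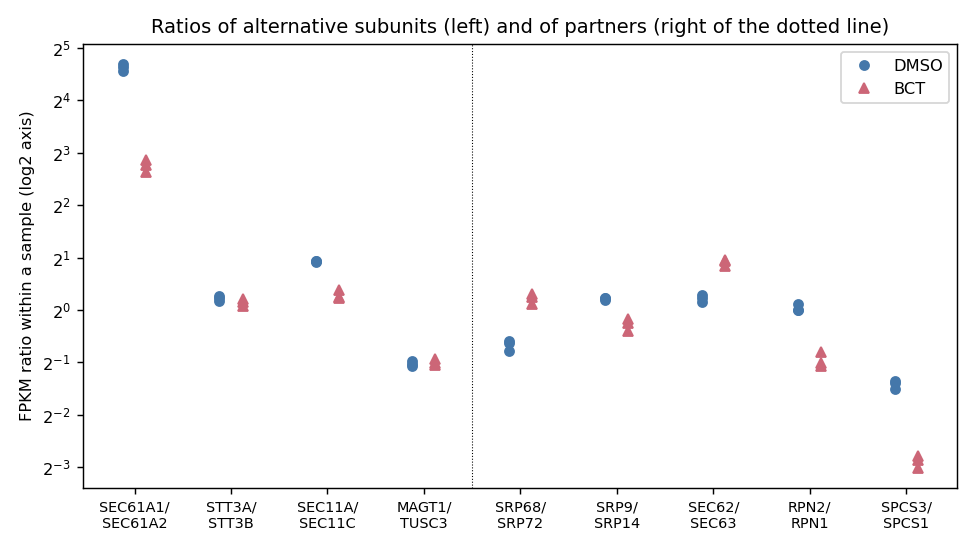
FPKM ratio of 2 genes within each sample (log2 axis) for DMSO (circles) and BCT (triangles). Left of the dotted line are the 4 alternative-subunit pairs, chosen with earlier results of these data known. On its right are the 5 partner pairs, chosen after the values were seen. The SEC61A1 to SEC61A2 ratio drops from a mean of 24.7 to 6.76, while the groups overlap for STT3A to STT3B and for MAGT1 to TUSC3.

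In OST, all 9 genes were lower at the FDR alone (beside 42.8% of all tested genes). Of the 9, 3 were called lower (33.3%, beside 17.8%), and the median was -0.64. Under equal FPKM sums, however, only RPN2, DDOST and OSTC stayed negative and the median was 0.13, against 0.72 for all tested genes. RPN2 (chr20:35806813-35870022, plus strand), an accessory subunit of the core, had the most negative value of the complex. It measured 190.5, 197 and 187 FPKM in DMSO and 68.1, 59.1 and 58.0 in BCT. RPN2 fell by 1.64 on the log2 scale (SE 0.068, adjusted p = 5.53e-07, limma), to 32.2% of the DMSO mean. Its listed interval is shared with MROH8, which overlaps 4.39% of its exonic bases on the other strand.

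RPN1, the core subunit that touches the ribosome and substrates, started from nearly the same level as RPN2 but differed less. It measured 189, 182 and 187 FPKM in DMSO and 118, 123 and 116 in BCT (-0.64, adjusted p = 4.33e-06, limma). The partner ratio of RPN2 to RPN1 was 1.03 ± 0.0452 in DMSO and 0.518 ± 0.0514 in BCT (SD, n = 3 per group). The FPKM values of these 2 core subunits were therefore near 1 to 1 in DMSO and not in BCT. A ratio of FPKM also depends on the length and interval assigned to each gene, so it does not give a ratio of transcript numbers.

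DDOST (chr1:20978260-20988037, minus strand), a core subunit of both OST forms, measured 158, 156 and 161 FPKM in DMSO and 84.9, 79.5 and 75.9 in BCT. It fell by 0.98 on the log2 scale (SE 0.054, adjusted p = 1.31e-06, limma). Its listed interval also holds PINK1, PINK1-AS and MIR6084, and 17.3% of its 100-base stretches occur in PINK1-AS. OSTC (chr4:109571741-109588976, plus strand), a subunit of the STT3A form that links it to the channel, measured 152, 148 and 153 FPKM in DMSO and 85.2, 81.4 and 84.1 in BCT. It fell by 0.854 on the log2 scale (SE 0.045, adjusted p = 1.17e-06, limma), and its call rests on the limit: it was lost at a pseudocount of 1 (-0.847) and without DMSO replicate 1 (-0.849), DMSO replicate 3 (-0.843) or BCT replicate 2 (-0.835). DAD1, a small core subunit, was the most abundant OST gene and differed least, with 210.4, 191 and 205 FPKM in DMSO and 178, 178 and 175 in BCT (-0.19, adjusted p = 0.00769, limma).

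OST comes in 2 forms: STT3A is the catalytic subunit of the form that works at the channel as the chain enters, and STT3B that of the form that acts on sites left behind. STT3A measured 71.1, 74.7 and 67.5 FPKM in DMSO and 47.2, 44.7 and 43.0 in BCT (-0.66, adjusted p = 1.2e-05, limma). STT3B measured 60.8, 62.3 and 59.8 FPKM in DMSO and 42.3, 38.7 and 40.6 in BCT (-0.59, adjusted p = 1.13e-05, limma). Their ratio, 1.17 ± 0.0346 in DMSO and 1.11 ± 0.0479 in BCT (SD, n = 3 per group), overlapped between groups (log2 difference -0.07, interval -0.19 to 0.05, exact permutation p = 0.2, adjusted 0.267).

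MAGT1 and TUSC3 are the alternative thioredoxin-like subunits of the STT3B form. MAGT1 measured 43.1, 41.1 and 39.1 FPKM in DMSO and 28.0, 29.4 and 27.9 in BCT (-0.53, adjusted p = 2.95e-05, limma). TUSC3, the more abundant one here, measured 84.9, 84.6 and 82.5 FPKM in DMSO and 56.4, 56.4 and 57.7 in BCT (-0.56, adjusted p = 5.83e-06, limma). The MAGT1 to TUSC3 ratio was 0.489 ± 0.0171 and 0.501 ± 0.0199 (log2 difference 0.03, interval -0.09 to 0.15, exact permutation p = 0.6). The data therefore showed 2 pairs whose ratios separated between groups (SEC61A1 to SEC61A2 and SEC11A to SEC11C) and 2 whose ratios overlapped.

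Further genes of the same steps were taken from lists of 70 genes in all, of which 11 were called lower (15.7%, beside 17.8% of all tested genes) and 0 higher (beside 13.9%) in limma. All list counts and medians here and below are with the FPKM as deposited. They were not repeated under other scalings, where the median of all tested genes moved to as much as 0.72. Without the fold limit 40 of the 70 were lower (57.1%, beside 42.8% of all tested genes) and 12 higher (17.1%, beside 39.3%) at the FDR. In the list of 10 further translocation and OST genes, 1 was called lower (10%, beside 17.8% of all tested genes) and 0 higher (beside 13.9%). It was MLEC, a lectin that associates with OST, at 124 ± 1.49 FPKM in DMSO and 43.2 ± 5.37 in BCT (SD, n = 3 per group). MLEC fell by 1.52 on the log2 scale (SE 0.082, adjusted p = 1.25e-06, limma). The small OST subunits differed among themselves: KRTCAP2 went from 308 to 425 FPKM (0.47), TMEM258 from 409 to 260.5 (-0.65) and OST4 from 301 to 283 (-0.09). SRPR, the receptor subunit that SRPRB anchors, went from 117 ± 2.96 to 82.3 ± 5.44 FPKM (SD, n = 3 per group, -0.50, adjusted p = 6.07e-05, limma), where SRPRB had overlapping groups. TRAM2 (-0.40), TMEM208 (-0.33), the nascent chain-associated genes NACA (-0.20) and BTF3 (-0.12), and signal peptide peptidase HM13 (-0.13) had values between the fold limits.

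The supply of the glycan donor and the handling of the finished glycan were covered by 2 lists. Of 33 genes of lipid-linked oligosaccharide synthesis, 6 were called lower (18.2%, beside 17.8% of all tested genes, a similar share) and 0 higher (beside 13.9%). The median of the 33 was -0.19. The mannosyltransferase ALG3 measured 57.7 ± 1.97 FPKM in DMSO and 21.2 ± 2.82 in BCT, and the glucosyltransferase ALG8 measured 49.3 ± 0.869 and 18.1 ± 1.58 (SD, n = 3 per group), each with a log2 fold change of -1.45. UAP1 (-1.07), which makes UDP-GlcNAc, and the glucosyltransferase ALG6 (-1.07) followed. The 10 genes of glycan trimming and the lectin cycle had a median of -0.46. Of these, 3 were called lower (30%, beside 17.8% of all tested genes) and 0 higher (beside 13.9%). They were the lectin chaperones CALR, from 1167 ± 38.6 to 291 ± 12.2 FPKM (-2.00), and CANX, from 249 ± 4.59 to 116 ± 3.43 FPKM (-1.10), and PRKCSH, the beta subunit of glucosidase II, from 153 ± 7.63 to 74.2 ± 2.65 FPKM (-1.04, SD, n = 3 per group). The 17 genes of the ER membrane complex and of tail-anchored protein insertion had a median of 0.02. Only EMC10 was called lower (5.88% of the list, beside 17.8% of all tested genes) and 0 higher (beside 13.9%). EMC10 went from 110.1 ± 2.48 to 42.1 ± 4.49 FPKM (-1.39).

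For scale, 2 neighbouring groups of ER genes were also counted, with the same test and only with the FPKM as deposited. Of 23 ER chaperones and disulfide isomerases, 11 were called lower (47.8%, beside 17.8% of all tested genes) and 0 higher (beside 13.9%). The median of the 23 was -0.83, and SDF2L1 (-2.76), PDIA4 (-2.64), CRELD2 (-2.02) and HSP90B1 (-1.98) were the lowest. Of 24 genes of ER-associated degradation and its regulators, 3 were called lower (12.5%, beside 17.8% of all tested genes) and 2 higher (8.33%, beside 13.9%), with a median of -0.12. Among them were DERL3 (-3.19) and SEL1L (-1.05), called lower, and ERN1 (1.24) and ATF6 (1.02), called higher. The median of the 32 translocation, signal peptidase and OST genes (-0.35) lay between these medians. Differences between the lists were not tested.

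Median levels within a sample restate the difference between the median log2 fold changes given above and add no separate evidence. The median log2 level of the 32 genes was 6.29 to 6.36 in the DMSO samples and 5.92 to 6.10 in the BCT samples. Measured from the median of all tested genes of the same sample, it was 2.73 to 2.78 higher in DMSO and 2.34 to 2.49 higher in BCT, so the groups did not overlap. As a share of the FPKM sum without MIR6087, the groups lay close together. The 32 genes took 0.608% to 0.633% of it in DMSO and 0.586% to 0.603% in BCT. SPCS3 and RPN2 were called lower, and SEC61A2 higher, under each of the 19 alternatives tried. SRP68 and SEC62 were called higher under all but the stricter test against the fold limit itself (limma treat), and DDOST and OSTC lost their calls under that test, quantile normalization and both rescalings to equal FPKM sums. With equal sums the calls among the 32 genes were 2 lower and 6 higher, with equal sums leaving out MIR6087 they were 2 and 4, and with quantile normalization 2 and 3.

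**Figure D4:**
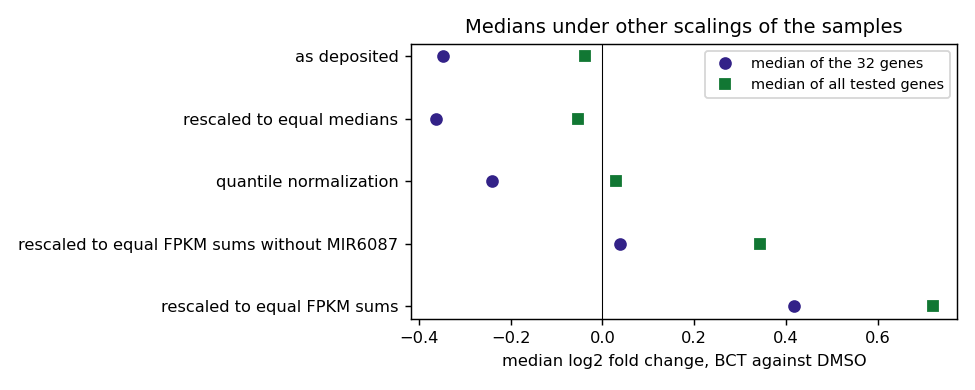
Median log2 fold change between BCT and DMSO of the 32 genes (circles) and of all tested genes (squares) with the FPKM as deposited and under 4 other scalings of the samples. The median of the 32 genes changes sign, from -0.35 as deposited to 0.42 at equal FPKM sums. It lies below that of all tested genes in each scaling shown. Except for quantile normalization, the scalings apply a constant factor per sample and nearly keep that gap by construction.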

How the data were processed

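RNA of 22RV1 cells was prepared as TruSeq v2 libraries (3 DMSO, 3 BCT samples) and sequenced as paired-end reads. Per the labels and the study's methods, the authors trimmed reads with Trimmomatic (0.38), aligned them to hg19 with HISAT2 and deposited FPKM per gene symbol. The methods name StringTie for this step and the submitters' processing notes list HTSeq, so which of these made the values is uncertain. The values carry no read counts, so no count test was run, depth is known only relative between samples, and no counting interval is given.

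Values were transformed to log2(FPKM + 0.1), so fold changes of low genes are understated, and genes averaging 1 FPKM or more over the 6 samples were fitted in limma (3.58.1, R 4.3.3; moderated variance with a trend, adjusted over all 12729 genes), which was tested on simulated data. Within-sample FPKM ratios of 4 pairs were compared by exact two-sided permutation tests (SciPy 1.17.1). Named are all called genes among the 32, the other genes by complex, both genes of each pair, every further translocation and OST gene, and up to 4 called genes of each other list with the largest absolute change. The genes, lists and pairs were chosen with earlier results of these data known. Alternatives covered pseudocount, filter, scaling, variance model, threshold, replicate block and leaving out each sample. Gene positions and shared 100-base stretches came from a GENCODE annotation on GRCh37, and promoters from RefSeq (GRCh38.p14). Of the 32 genes, 10 had a 100-base stretch that occurs in another gene, among them SSR3 (23.6% of stretches), SPCS2 (15.2%) and SRP9 (11.7%). The listed intervals of 6 were shared with another symbol, among them SSR4 with IDH3G. Protein sequences were not analysed here.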

Additional observations from a re-analysis of the deposited data

How the results depend on the processing

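Without read counts, counting error cannot be separated from other spread, and 3 samples per group limit every exact permutation test of a ratio to p = 0.1 (two-sided). Of 608 recomputed log2 fold changes of the 32 genes, 553 changed neither sign nor call, 14 lost a call, 7 gained one and 34 changed sign. Rescaling to equal FPKM sums gave 2 genes called lower, 6 higher, 6282 of all genes called (668 lower, 5614 higher, against 2263 and 1764) and a median of 0.42. It changed the sign of SRP9 (0.098), SRP14 (0.59), SEC61A1 (0.15), SEC61B (0.54), SSR1 (0.49), SSR2 (0.021), SSR3 (0.50), SPCS1 (0.34), SPCS2 (0.049), SEC11A (0.025), SEC11C (0.66), RPN1 (0.13), DAD1 (0.58), STT3A (0.11), STT3B (0.18), TUSC3 (0.20) and MAGT1 (0.24). Without MIR6087 in the sums, 2 genes were called lower, all genes split into 1208 lower and 3370 higher, the median was 0.038, and SRP14 (0.21), SEC61B (0.16), SSR1 (0.11), SSR3 (0.12), SEC11C (0.28) and DAD1 (0.20) changed sign. Quantile normalization gave 2 called lower, a median of -0.24 and a changed sign for SRP14 (0.18), SEC61B (0.088), SEC11C (0.21) and DAD1 (0.13). Equal sample medians gave 5 called lower (SSR4 joined, at -0.86) and changed the sign of SRP54 (-0.013) and SRPRB (-0.0014). Limma treat called 2 lower and 1 higher, and 2425 of all genes. With no filter on low values 5428 genes were called in all. Why the scalings differ was not tested.

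Leaving out 1 sample at a time gave 3 to 5 genes called lower, 3 higher each time, 3834 to 4420 of all genes called and medians of -0.38 to -0.34. The log2 fold change of SRP54 ran from -0.044 to 0.047, of SRPRB from -0.015 to 0.044 and of TRAM1 from -0.0091 to 0.059, and the pair ratios kept their sign. SSR4 also gained a call without DMSO replicate 2 (-0.86) or BCT replicate 1 (-0.89). Deviations of same-numbered samples correlated at 0.033 to 0.116 (mean 0.061), beside -0.115 to 0.074 (mean -0.031) for other numbers. With 3 samples per group these values cannot decide whether the numbers pair the samples, and the main fit used no pairing. The fit with the replicate number as a block (replicate block) called 4 of the 32 genes lower, 3 higher and 4033 of all genes, with a median of -0.35.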
